A study of Homo sapiens with 4 samples.

Results

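The 7 Mb of chromosome 11 from 111.5 to 118.5 Mb, at band 11q23, hold NCAM1 and CADM1, a gene desert beyond CADM1 and the APOA5-APOA1 gene cluster. The region was set by its position on hg19, chosen with earlier results of these data known. Its members were the peaks that share at least 1 bp with it. They numbered 563 in list 1 and 648 in list 2, the 2 deposited broad peak lists of the series, of 326823 and 265052 peaks in all. The series profiled H3K9me3 in U2OS, a long-established cell line from a human osteosarcoma. The labels also tie the cells to the name KRAB-IDR3-TCF3 without explaining it. Antibody was used on 2 samples and none on 2 input samples, and all 4 carry the same cell line and name. Both antibody samples refer to list 2 and both input samples to list 1, although every peak of either list is named as an immunoprecipitation. The lists were therefore given to no sample or group, and the labels do not settle whether list 1 holds H3K9me3 or input signal. Each stands as 1 set of values without replicate error, read depth or a test between samples, and list 1 and list 2 are set side by side as lists.

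H3K9me3, trimethylation of lysine 9 of histone H3, is laid down by enzymes such as the SUV39H and SETDB1 methyltransferases and is bound by HP1 proteins, which compact the marked chromatin. It is known from satellite repeats, zinc finger gene clusters and silent genes of other cell lineages, and it can spread over long stretches between nucleation sites. NCAM1 encodes the neural cell adhesion molecule, also known as CD56, of neurons and natural killer cells. CADM1 encodes another adhesion molecule of the immunoglobulin superfamily, a tumour suppressor that is often silenced in carcinomas. The APOA5-APOA1 cluster holds apolipoprotein genes used in liver and intestine. APOA1 encodes the main protein of high-density lipoprotein, APOA5 and APOC3 products act on the clearance of triglycerides, APOC3 as an inhibitor of it, and APOA4 encodes an intestinal apolipoprotein.

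In the order of the RefSeq gene table, 17 protein-coding genes lie between NCAM1 and CADM1. They include DRD2, the D2 dopamine receptor, HTR3A and HTR3B, subunits of the serotonin-gated ion channel, ZBTB16, a transcriptional repressor with zinc fingers, ZW10, a kinetochore protein, and USP28, a deubiquitinase. Between CADM1 and BUD13, the protein-coding gene that precedes ZPR1 and APOA5, the table lists 0 protein-coding genes and 12 long noncoding RNA genes. SIK3, PAFAH1B2, SIDT2, TAGLN, PCSK7, RNF214, BACE1, CEP164 and DSCAML1 follow APOA1 in that order. The table is on GRCh38.p14 and gave names and order only. Values are therefore given for the landmark spans and for bins on hg19, not for these neighbouring genes.

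The RefSeq promoter table used here had no entry for NCAM1, CADM1, APOC3 or APOA1. Windows of 2 antisense genes that start inside NCAM1 and CADM1, of a noncoding gene of the desert interval and of APOA5 are shown, as the sequences at hand from these places. Each runs from 250 bases before to 50 after a gene start on GRCh38.p14, from 5′ to 3′ on the gene's strand, with CG dinucleotides in capitals. NCAM1-AS2 (chr11:112963411-112963710, minus strand) starts inside NCAM1 on the opposite strand, CADM1-AS1 (chr11:115396506-115396805, plus strand) starts inside CADM1 on the opposite strand, and LINC02698 (chr11:115659103-115659402, plus strand) is a noncoding gene between CADM1 and BUD13. APOA5 (chr11:116792371-116792670, minus strand) is the landmark gene itself. These positions belong to GRCh38.p14 and cannot be laid on the hg19 peaks.
NCAM1-AS2: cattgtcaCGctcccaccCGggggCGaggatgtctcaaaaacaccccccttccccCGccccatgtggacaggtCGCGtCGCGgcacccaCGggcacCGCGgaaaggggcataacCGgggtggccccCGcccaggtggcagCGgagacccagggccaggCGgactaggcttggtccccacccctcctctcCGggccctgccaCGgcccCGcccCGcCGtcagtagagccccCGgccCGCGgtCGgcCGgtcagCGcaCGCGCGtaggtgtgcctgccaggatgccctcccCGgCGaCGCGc
CADM1-AS1: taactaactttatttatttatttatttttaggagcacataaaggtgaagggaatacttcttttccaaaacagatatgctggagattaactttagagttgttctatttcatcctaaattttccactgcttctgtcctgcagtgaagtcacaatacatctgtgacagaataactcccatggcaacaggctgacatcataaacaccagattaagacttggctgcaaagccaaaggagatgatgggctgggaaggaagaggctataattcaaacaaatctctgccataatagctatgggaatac
LINC02698: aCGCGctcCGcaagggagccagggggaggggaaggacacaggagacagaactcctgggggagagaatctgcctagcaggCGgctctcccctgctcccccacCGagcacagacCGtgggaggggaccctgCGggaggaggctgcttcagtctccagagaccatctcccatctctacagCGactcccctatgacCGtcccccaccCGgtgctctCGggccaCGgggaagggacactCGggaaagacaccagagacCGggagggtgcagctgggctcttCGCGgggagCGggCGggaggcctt
APOA5: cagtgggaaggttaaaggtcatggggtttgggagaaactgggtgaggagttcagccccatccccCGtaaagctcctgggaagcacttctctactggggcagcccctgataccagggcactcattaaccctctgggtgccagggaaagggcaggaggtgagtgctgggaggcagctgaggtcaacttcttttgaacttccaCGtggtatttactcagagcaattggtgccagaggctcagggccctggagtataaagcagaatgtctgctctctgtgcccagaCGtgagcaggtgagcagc
The NCAM1-AS2 window held 33 CG dinucleotides, more than 82.8% of the 35116 promoter windows in the table. LINC02698 held 18, APOA5 held 3 and CADM1-AS1 held 0, and the median of all windows was 14. APOA4, whose window is not printed, held 7. At least 1 CG was present in 96.0% of all windows. No relation of these counts to the peaks was tested.

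The region was covered more than the rest of chromosome 11 in both lists. Peaks lay over 69.5% of it in list 1, against 50.9% of the rest of the chromosome, a ratio of 1.37. In list 2 they lay over 49.95% of it, against 28.4% of the rest, a ratio of 1.76. Peak-free stretches of at least 1 Mb were taken out of the comparison span, which left 124.8 Mb. The ratio of list 1 was 2.51 when only its peaks at or above the lowest −log10 p found in list 2 were kept, so its size depended on the limit of the list. It was 9.32 in list 1 and 4.28 in list 2 for peaks with −log10 q of at least 2, values that rest on 1 and 4 peaks of the region. None of these peaks reached the landmarks: with that limit NCAM1, CADM1, the desert and the cluster were each covered 0% in both lists.

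Coverage was uneven within the region, and with the borders as given and all peaks kept, the same 3 segments were highest and the same 2 lowest in both lists. NCAM1, from 112.83 to 113.15 Mb, was covered 93.9% in list 1 and 75.2% in list 2. CADM1, from 115.04 to 115.38 Mb, was covered 86.9% in list 1 and 62.2% in list 2. The desert, from 115.4 to 116.6 Mb, had 90.7% of its length covered in list 1 and 77.6% in list 2, where it led. The stretch between the adhesion genes was covered 78.9% in list 1 and 60.2% in list 2. In the flank before NCAM1 the shares were 63.4% in list 1 and 42.7% in list 2, and in the flank after the cluster 44.9% and 21.1%. The APOA5-APOA1 cluster, from 116.65 to 116.71 Mb, was covered 36.4% in list 1 and 16.6% in list 2, the lowest shares with these borders. In list 1 the share of the cluster turned on its borders. Moved 20 kb inward, they left only its middle part, from 116670001 to 116690000, and gave 64.2%. That was above the flank after the cluster (45.4%) and above the rest of chromosome 11. In list 2 the same borders gave 20.8% for this middle part and 21.4% for the flank. Both adhesion genes, the desert and the stretch between the genes lay above the rest of chromosome 11 in each list, and the flank after the cluster lay below it. The cluster lay below it in list 2, and in list 1 only with the borders as given or moved outward (27.5%). Under that limit on list 1 the desert led list 1 at 84.9%, NCAM1 was at 77.6%, the stretch between the genes at 63.5%, above CADM1 at 61.1%, the far flank at 11.5% and the cluster at 2.38%.

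**Figure D1:**
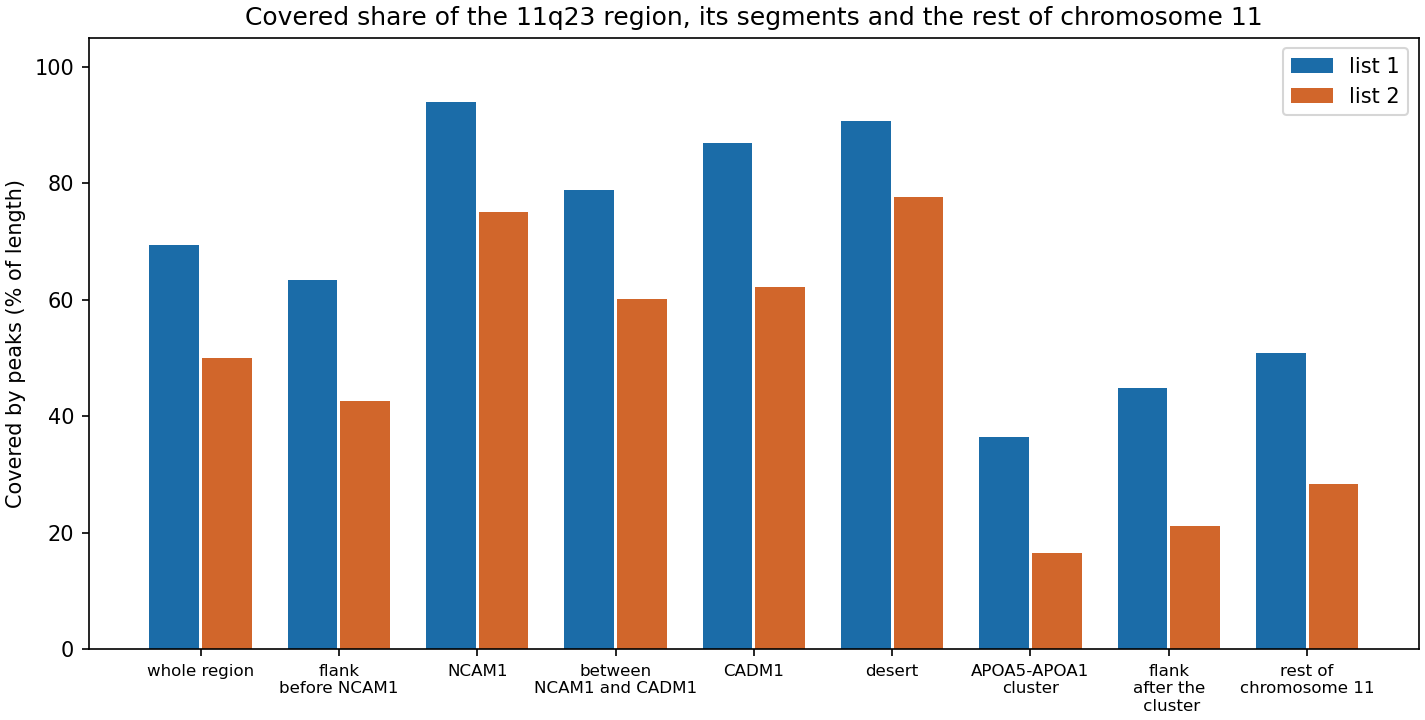
Covered share in percent of length for the whole region, its 7 segments and the rest of chromosome 11, with list 1 and list 2 as paired bars from single lists without error. NCAM1, CADM1 and the desert stand above the rest of chromosome 11 in both lists, and the flank after the cluster stands below. The APOA5-APOA1 cluster stands below with the borders drawn, but its middle part alone, with borders 20 kb inward, was at 64.2% in list 1.

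In bins of 100 kb, dense and sparse stretches followed each other with steep borders. A bin was called dense where more than 60% of it was covered in both lists, which held for 32 of the 70 bins of the region (45.7%), against 91 of 1248 bins (7.29%) in the rest of chromosome 11 and 9.65% of the 28387 bins of chromosomes 1 to 22 and X. The median bin of the region was covered 79.0% in list 1 and 55.5% in list 2, against 53.6% and 26.5% in the rest of chromosome 11. The desert held 10 of its 12 bins as dense, and the stretch between the adhesion genes 10 of 19. All 3 bins centred in NCAM1 and 3 of the 4 centred in CADM1 were dense. None of the 19 bins centred in the cluster and the flank beyond it was dense, although their highest covered share in list 1 reached 82.1%. Bins are neighbours on 1 chromosome and not replicates.

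**Figure D2:**
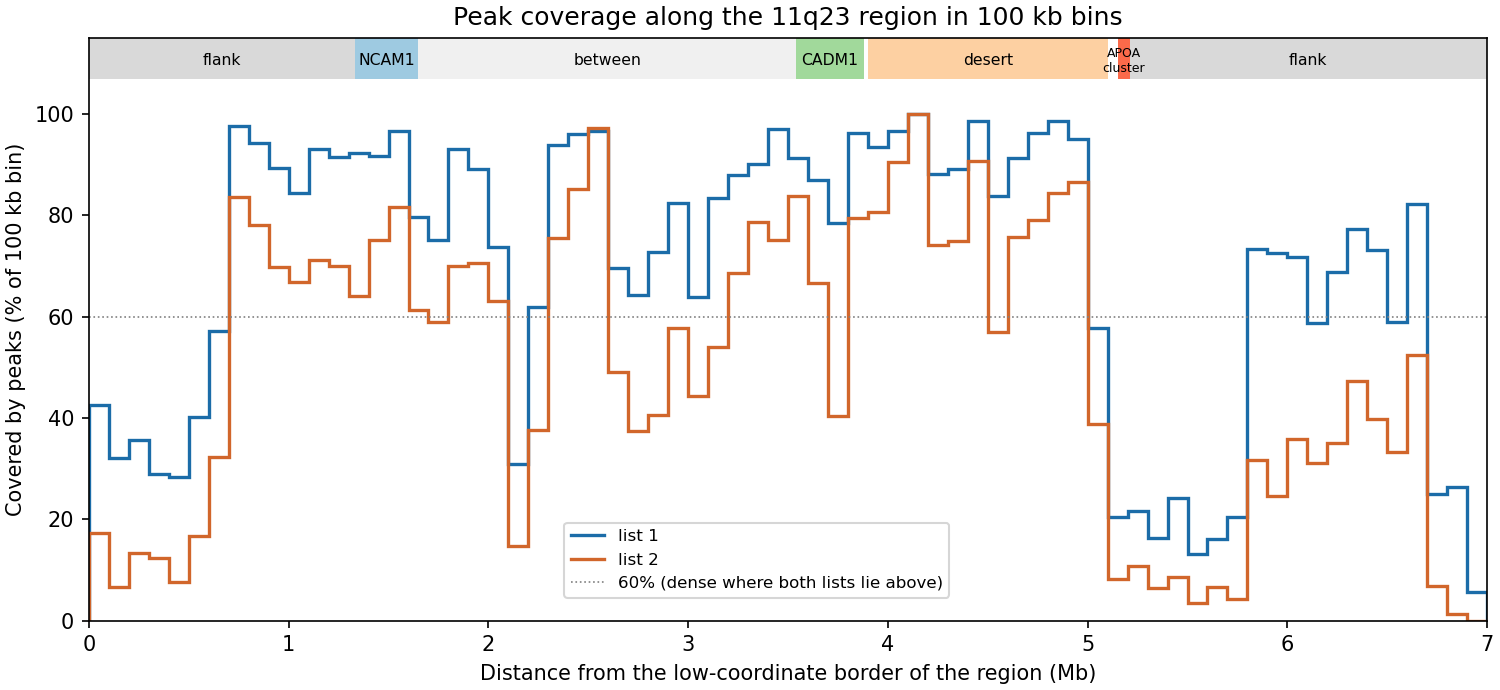
Covered share of each 100 kb bin in percent, plotted against the distance in Mb from the low-coordinate border of the region, with the segments along the top and a dotted line at 60%. Both lists are high over NCAM1, CADM1 and the desert, fall together 5 Mb into the region, and part most in the stretch at 5.8 to 6.7 Mb, where list 1 averaged 70.7% and list 2 36.8%.

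The dense part began at 112.2 Mb. The 6 bins from 111.5 to 112.1 Mb averaged 34.6% ± 5.92 (SD over bins) in list 1 and 12.4% ± 4.44 in list 2. The 14 bins from 112.2 to 113.6 Mb, which take in NCAM1, averaged 88.7% ± 7.61 in list 1 and 70.3% ± 7.35 in list 2. The 3 bins beyond the border at 112.2 Mb averaged 93.7% in list 1 and 77.2% in list 2, against 41.9% and 18.9% in the 3 bins before it. Among 28145 such borders of chromosomes 1 to 22 and X, ranked by the change in the list where it was smaller, this rise ranked 107.

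A short gap interrupted the dense part between NCAM1 and CADM1. Coverage was 31.0% in list 1 and 14.7% in list 2 for the bin from 113.6 to 113.7 Mb. The next bin had 62.0% in list 1 and 37.5% in list 2. They were followed by 3 bins up to 114.1 Mb with averages of 95.5% ± 1.48 in list 1 and 86.0% ± 10.8 in list 2. The last of these reached 97.2% in list 2, above 99.9% of all bins of that list. Another 6 bins, from 114.1 to 114.7 Mb, averaged 72.7% ± 8.56 in list 1 and 47.2% ± 7.85 in list 2, and 0 of them were dense. The 18 bins from 114.7 to 116.5 Mb, which run from before CADM1 to near the end of the desert, averaged 92.2% ± 5.77 in list 1 and 77.0% ± 13.4 in list 2. In this stretch the bin from 115.6 to 115.7 Mb was covered 100% in both lists.

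The end of the desert was the steepest border of the region. The 3 bins beyond 116.5 Mb averaged 33.3% in list 1 and 19.3% in list 2, against 96.6% and 83.3% in the 3 bins before it. This fall ranked 20 among the 28145 borders. The 7 bins from 116.6 to 117.3 Mb, which begin with the apolipoprotein cluster, averaged 19.0% ± 3.79 in list 1 and 6.96% ± 2.55 in list 2. Of these 7 bins, 6 were covered less than 30% in list 1 and less than 10% in list 2, as were 10 of the 70 bins of the region (14.3%) against 23.6% of all bins. The sparse limits and the borders of the stretches were chosen after the bins had been seen.

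Beyond the sparse bins the lists differed by more percentage points than in any of the other stretches. The 9 bins from 117.3 to 118.2 Mb averaged 70.7% ± 7.71 in list 1 and 36.8% ± 8.54 in list 2, 1.92 times as much in list 1. In the dense stretch over CADM1 and the desert that ratio was 1.20, and over NCAM1 and its surroundings 1.26. The stretches with the lowest coverage had the highest ratios, 6.82 from 118.2 to 118.5 Mb, 2.80 before 112.1 Mb and 2.72 from 116.6 to 117.3 Mb. The 2 bins from 113.6 to 113.8 Mb, at 46.5% in list 1 and 26.1% in list 2, had a ratio of 1.78, below the 1.92. The last 3 bins, up to 118.5 Mb, averaged 19.0% ± 11.7 in list 1 and 2.79% ± 3.68 in list 2, and the last of them held no peak in list 2 and was covered 5.59% in list 1. Across the 70 bins Pearson's r between the lists was 0.95 and Spearman's rho 0.967, a description over bins that share their source and not a test.

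Within NCAM1 every bin of 10 kb held covered length in both lists, and list 2 was more broken up. In list 1 the coverage was held by 13 peaks with a median width of 18735 bp, and in list 2 by 42 peaks with a median width of 3490.5 bp. The lowest of its 32 bins of 10 kb was covered 58.3% in list 1 and 46.3% in list 2. Bins covered in full numbered 16 in list 1 and 4 in list 2. In 4 equal parts of the gene from its start, list 1 covered 90.1%, 92.4%, 96.2% and 96.9%, and list 2 covered 62.3%, 76.2%, 77.0% and 85.1%. The last part was thus covered most in both lists. The border given for its start, 112.83 Mb, lay in a peak of list 1 from 112808658 to 112851593 (42.9 kb, fold 1.81) and in a peak of list 2 from 112827827 to 112830755 (2929 bp, fold 2.28). Past the end of the gene, the bin from 113160001 was still covered 78.15% in list 1 and 72.5% in list 2. Coverage then dipped, to 25.5% in list 1 for the bin from 113210001 and to 11.9% in list 2 for the bin from 113190001. The bin from 113240001 was back at 69.3% in list 1 and 56.7% in list 2, and the bins from 113.3 to 113.6 Mb were dense.

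CADM1 was covered at its ends more than in its middle. The gene is read towards lower coordinates, so its start is the border at 115.38 Mb, which lay in a wide peak of both lists, from 115366650 to 115451130 in list 1 (84.5 kb, fold 2.31) and from 115374053 to 115445808 in list 2 (71.8 kb, fold 2.62). Split the same way from its start, the gene was covered 95.6%, 84.4%, 77.6% and 89.9% in list 1, and list 2 covered 73.7%, 40.6%, 65.7% and 68.8%. The lowest bin of 10 kb was 115200001 to 115210000 in list 1, at 16.1%, and 115190001 to 115200000 in list 2, at 2.34%. In list 2, 11 of its 34 bins of 10 kb were covered less than 50%, against 3 of 32 in NCAM1, and in list 1 the numbers were 1 and 0. A peak of list 2 inside CADM1, from 115301778 to 115328499, reached a q-value under 0.05 with a fold of 2.92. The landmark borders are given to the nearest 10 kb, so no peak is placed on a promoter more exactly than that.

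**Figure D3:**
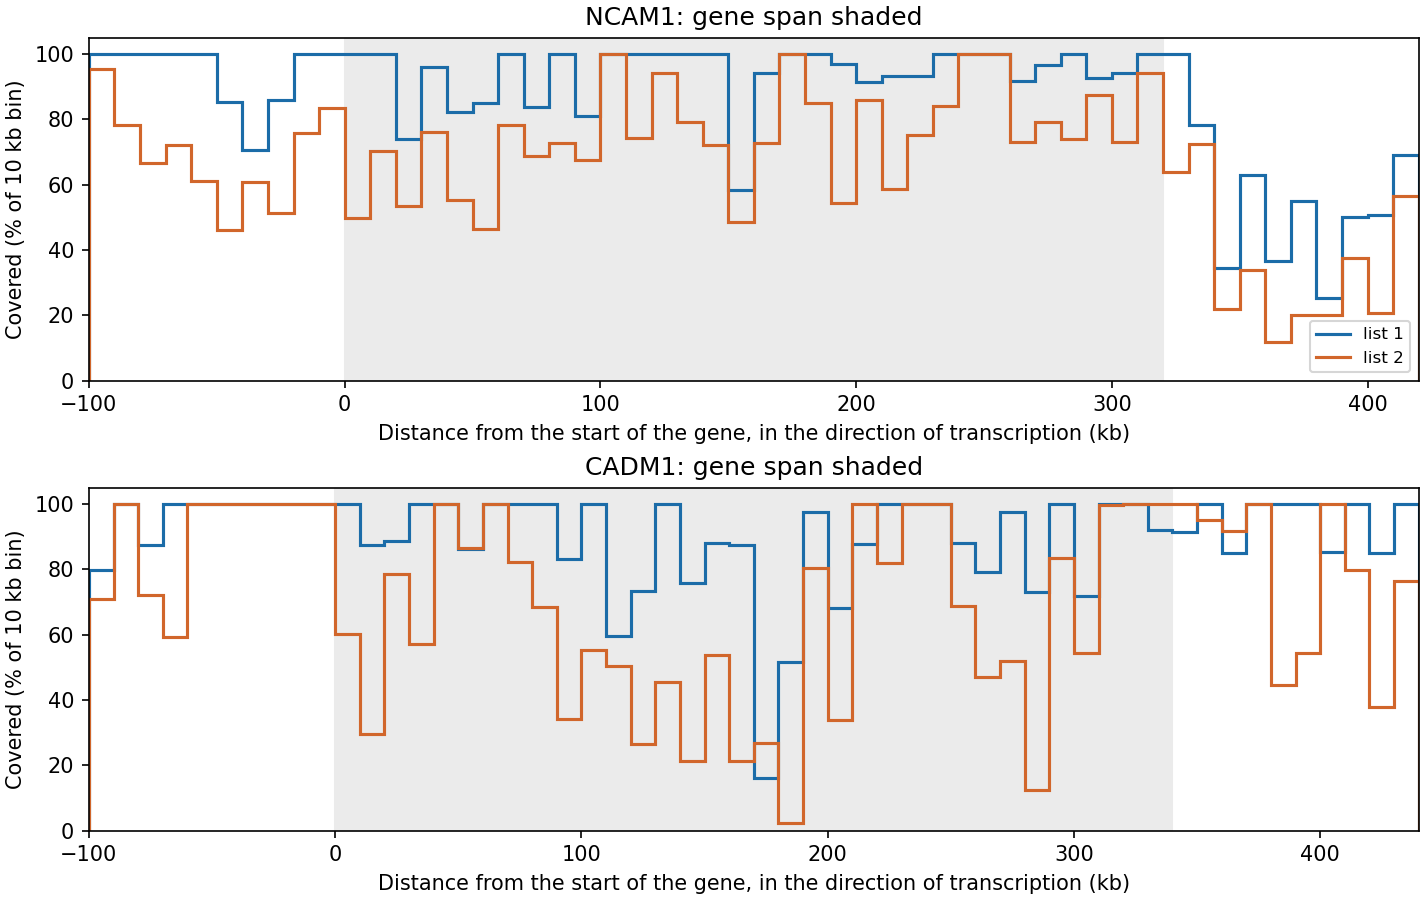
Covered share of 10 kb bins in percent along NCAM1 and CADM1, plotted in kb from the start of each gene in the direction of transcription, with the gene span shaded and 100 kb shown on either side. NCAM1 has no bin below 46.3% in either list, whereas CADM1 dips to 16.1% in list 1 and 2.34% in list 2 near its middle.

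The single widest peak of the region lay in the desert in each list. The widest of the region ran from 115548649 to 115714740 in list 1, 166 kb with a fold of 2.35, and ranked 39 by width among all peaks of that list on chromosomes 1 to 22 and X. Its counterpart in list 2 ran from 115574157 to 115713556, 139 kb with a fold of 2.71, and ranked 4. Of the 5 widest peaks of list 1, 4 were centred in the desert, and so were 4 of the 5 widest of list 2. In each list these include the wide peak over the start of CADM1 described above, whose midpoint lies in the desert. Peaks of at least 25 kb centred there numbered 18 in list 1 and 7 in list 2, out of 51 and 19 in the region. The stretch between the adhesion genes had 13 and 7, NCAM1 6 and 1, and CADM1 3 and 3, in segments of unlike length. The median width was larger in NCAM1 (18735 bp in list 1, 3490.5 bp in list 2) than in the desert (11115 and 3311.5 bp). The first 300 kb of the desert were covered 96.7% in list 1 and 90.3% in list 2, and its last 300 kb 83.8% and 69.9%. Both lists thinned out before 116.6 Mb, where the domain that holds the desert ended, at 116574167 in list 1 and 116555779 in list 2.

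The apolipoprotein cluster held no peak of at least 10 kb in either list. List 1 had 10 peaks centred in its 60 kb, with a median width of 1598.5 bp, a widest peak of 6338 bp and a highest fold of 1.91. List 2 had 7, with a median width of 1533 bp, a widest peak of 2463 bp and a highest fold of 2.10. The peaks were thus more frequent there than in the desert, with 16.7 per 100 kb in list 1 and 11.7 in list 2, against 4 and 8.83 in the desert, and their median width was smaller. NCAM1 had 4.06 per 100 kb in list 1 and 13.1 in list 2, and CADM1 7.35 and 11.5. In list 2 the frequency therefore did not set the cluster apart from these genes. Across the low-coordinate border of the cluster, neither list had a peak from 116622662 to 116664451, a gap of 41.8 kb. Above the median fold of its list, list 2 covered 0% of the cluster and list 1 17.3%.

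Joined under 10 kb, the peaks formed 44 domains in list 1 and 58 in list 2. The longest of list 1 ran from 114288124 to 116574167, 2.29 Mb, and the longest of list 2 from 114615726 to 116555779, 1.94 Mb. Each held all of CADM1, with 97.8% of the desert in list 1 and 96.3% in list 2. By length the domain of list 1 ranked 41 of 27641 domains on chromosomes 1 to 22 and X and 3 on chromosome 11. That of list 2 ranked 3 of 48289 and was the longest on chromosome 11. Those ahead of it in list 2 lay on chromosome 10 (4.20 Mb) and chromosome 8 (2.42 Mb). These lengths depended on the joining distance. At 3 kb the longest domain was 541 kb in list 1 and 216 kb in list 2, and at 25 kb it was 6462 kb and 2263 kb.

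With joining under 10 kb, NCAM1 belonged to another domain in both lists. At 25 kb this no longer held in list 1, where a single domain from 110160541 to 116622661 took in NCAM1, CADM1 and the desert. Under 10 kb, the NCAM1 domain of list 1 ran from 112107241 to 113594753 (1.49 Mb) and that of list 2 from 112463309 to 113191191 (0.728 Mb), and each held all of NCAM1. Domains of at least 100 kb numbered 7 in list 1 and 11 in list 2, and held 77.9% and 64.7% of the region. They held 53.3% of the flank after the cluster in list 1 and 29.4% in list 2, and none of the APOA5-APOA1 cluster in either list. Nearly all domain length of list 2 (99.9%) lay in domains of list 1, and 82.9% the other way. Under the −log10 p limit the longest domain of list 1 was 464 kb, from 116075712 to 116539830 in the desert.

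**Figure D4:**
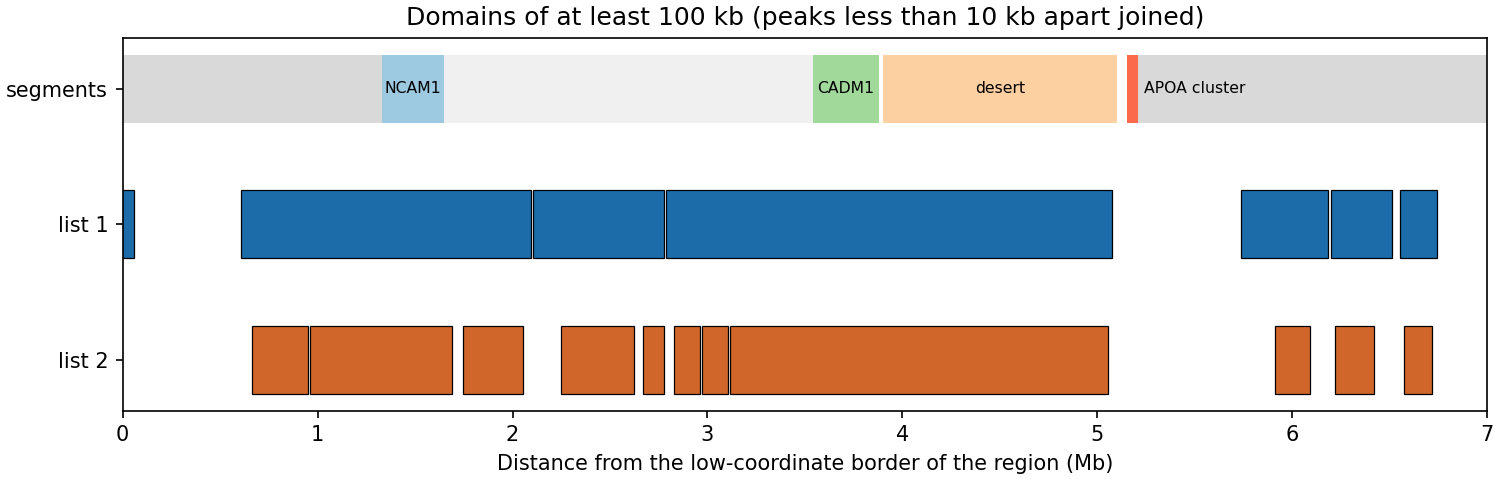
Domains of at least 100 kb as bars along the region, in Mb from its low-coordinate border, for list 1 and list 2 under the segments. The longest domain of each list spans CADM1 and the desert, NCAM1 lies in a separate domain at the joining distance of 10 kb, and no such domain reaches the APOA5-APOA1 cluster.

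Peaks of the region were wider than those of the rest of chromosome 11. The median width was 2667 bp in list 1, against 2141 bp in the rest of the chromosome, and 2372.5 bp in list 2, against 1657 bp. The lower quartile was 964.5 bp in list 1, against 915 bp, and 1222 bp in list 2, against 796 bp. The upper quartile was 9008.5 bp in list 1, against 5221 bp, and 6235 bp in list 2, against 3460 bp. The 2 lists thus differed at the narrow end, where the lower quartile of list 1 was close to that of the rest of the chromosome. Peaks of at least 25 kb made up 9.06% of the peaks in list 1, against 1.603%, and 2.93% in list 2, against 0.332%. They held 50.95% of the covered length of the region in list 1, against 14.5% in the rest of the chromosome, and 24.6% in list 2, against 4.89%. These shares carry no test, since each list is 1 set of values and its peaks are not replicates.

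Folds differed less than widths. The authors' fold is an enrichment over the background of the peak caller, and its median was 1.71 in list 1, against 1.66 in the rest of chromosome 11, and 2.19 in list 2, against 2.13. The lowest fold was 1.44 in list 1 and 1.90 in list 2, and 16.3% and 10.6% of the peaks of the region lay at it. Folds of the lists thus started from different lower limits, and medians near these limits are not free levels of enrichment. Wider peaks had higher folds, with medians of 1.53, 1.72 and 2.00 in list 1 for peaks under 2 kb, of 2 to 10 kb and of at least 10 kb, and of 2.04, 2.28 and 2.46 in list 2. Spearman's rho of width and fold was 0.626 over the 563 peaks of list 1 and 0.597 over the 648 of list 2, a description within each list. By segment, the median fold was 1.94 in NCAM1, 1.74 in CADM1, 1.94 in the desert and 1.62 in the cluster in list 1, and 2.23, 2.13, 2.31 and 2.00 in list 2.

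**Figure D5:**
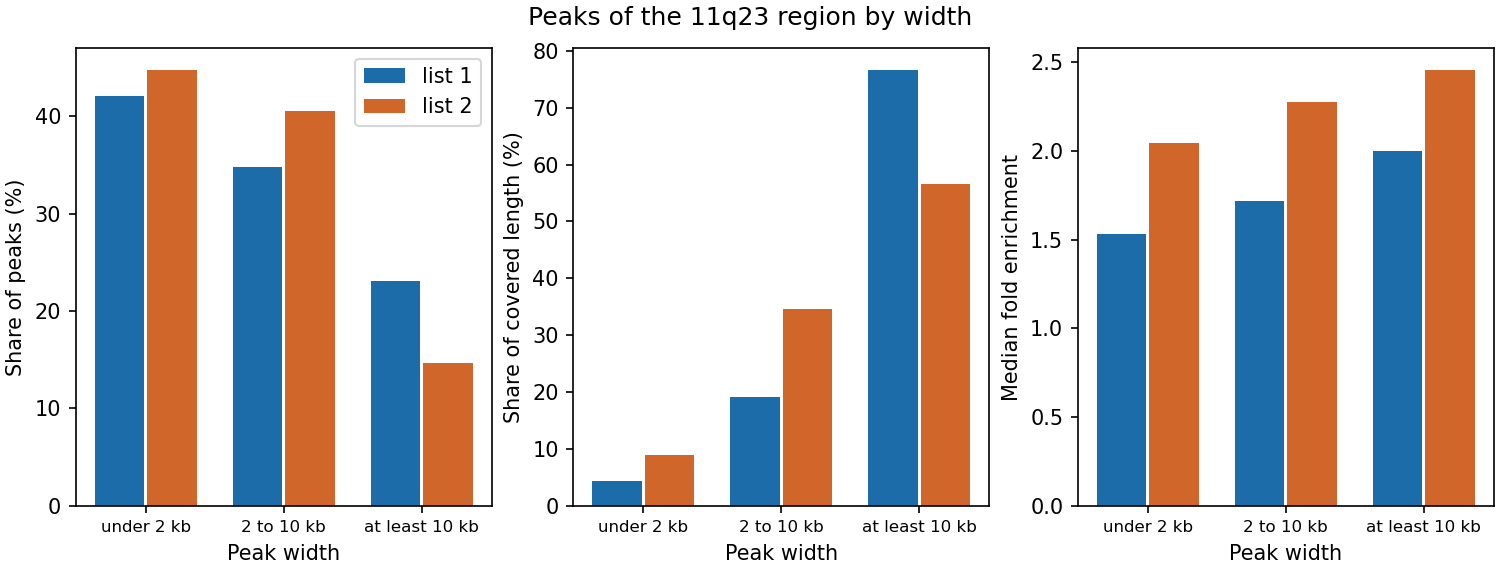
Share of peaks, share of covered length (both in percent) and median fold enrichment of the peaks of the region by width class, for list 1 and list 2. Peaks of at least 10 kb are the smallest class by number in both lists, yet hold 76.6% of the covered length in list 1 and 56.5% in list 2.

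The highest folds lay outside the landmark genes. In list 1 the highest was 3.33, from 111955447 to 111962638 in the flank before NCAM1, followed by 3.03 from 113536120 to 113542789 between the adhesion genes. In list 2 these places gave 3.67 (111957668 to 111961023) and 4.03 (113536180 to 113542922), the other way round. The authors' q-value was at most 0.05 for 4 peaks of list 1 (0.710%, against 0.164% in the rest of chromosome 11) and for 28 of list 2 (4.32%, against 1.73%). All 4 of list 1 overlapped one of the 28, and all 28 overlapped some peak of list 1. In list 2 they were 8 of the 113 peaks centred in the flank before NCAM1 and 11 of 185 between the adhesion genes. They were 1 of 39 in CADM1, 6 of 106 in the desert and 2 of 155 in the flank after the cluster. NCAM1 had 0 of 42 and the cluster 0 of 7. These peaks are too few to set a 0 apart from the 4.32% of the region.

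The lists shared more of their peaks and length in the region than in the rest of chromosome 11. In list 1, 324 peaks (57.5%, with a 95% Wilson interval of 53.4 to 61.6%) overlapped list 2 by at least 1 bp, against 53.7% (52.9 to 54.5%) in the rest of the chromosome. In list 2, 619 peaks (95.5%, 93.6 to 96.9%) overlapped list 1, against 91.1% (90.6 to 91.6%). The intervals cover counting error only and treat neighbouring peaks as independent, so they are no test of a difference in either list. Length in both lists was 3.31 Mb, or 67.9% of what list 1 covered and 94.5% of what list 2 covered, against 48.9% and 87.8% in the rest of the chromosome. All 13 peaks of list 1 in NCAM1 had a partner, as had 39 of 48 in the desert, 20 of 25 in CADM1, 6 of 10 in the cluster and 91 of 192 in the flank after it. A wide peak has more room to meet a partner, and the part of width in these shares was not tested. Coverage was also higher in the region, 69.5% against 50.9% in list 1 and 49.95% against 28.4% in list 2. Shared length rises with coverage, and the shares were not set against what coverage alone would give. They therefore do not show closer agreement of the lists here. With a reciprocal overlap of 50%, partners remained for 21.7% of the peaks in list 1 and 19.0% in list 2.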

How the data were processed

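Broad peak lists on hg19 were used, 2 in all, without headers. Per the submitters' processing notes, the tools were MACS2 2.2.7.1, Bowtie2 2.5.0, Trim Galore 0.6.7 and bcl2fastq 2.17, with no role or order stated. Cutoffs, controls and the handling of duplicates were not given in the sources used here. For each peak, the authors deposited a score (the −log10 p times 10, rounded down, not used), a fold over background (a ratio), a −log10 p and a −log10 q, from which the q-values were read. The lowest −log10 p was 1.02 in list 1 and 1.58 in list 2. Read depth is unknown, and no copy number or mappability correction was made.

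Covered length, bins of 100 and 10 kb, domains and overlaps were computed with Python 3.11.15 (matplotlib 3.10.9, scipy 1.17.1, pandas 2.3.3, numpy 2.4.6), on chromosomes 1 to 22 and X, whose spans end at the last peak. Counts by segment use peak midpoints, and 1 peak of each list had its midpoint in no segment. Bins lying wholly in peak-free stretches of at least 1 Mb were left out. Coordinates are 1-based, and landmark borders came from the definition of the region. The routines were tested on simulated data. No test between samples was possible. Named were the landmark loci, the 5 widest and 5 highest-fold peaks and the longest peak-free gaps, of which those that bear on a landmark are described. Region, landmarks and alternatives were chosen with earlier results of these data known.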

Additional observations from a re-analysis of the deposited data

How the results depend on the processing

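No paired analysis was possible because the lists belong to no sample. No read depth is known, and a strict q left few peaks. Under the alternatives run, the ratio of the region to the rest of chromosome 11 and that of the desert to the flank after the cluster stayed above 1. The ratio of the region to the rest of chromosome 11 was, in list 1, 1.57 above the median fold, 1.39 at equal list length, 1.90 for base pairs in both lists, 1.40 with peak-free stretches counted and 1.45 against all chromosomes, besides 2.51 when limited to −log10 p values that list 2 also reaches and 9.32 with −log10 q of at least 2. In list 2 it was 2.13 above the median fold, 1.81 with the stretches counted, 1.85 against all chromosomes and 4.28 with −log10 q of at least 2. The desert was covered 2.02 times as much as the flank after the cluster in list 1 and 3.68 times in list 2. Above the median fold these were 2.54 and 5.48. In list 1 the ratio was 7.36 with list 1 limited, 2.11 at equal length, 4.23 for base pairs in both lists, 2.03 with borders 20 kb inward and 2.01 outward. No such ratio was given with −log10 q of at least 2, since neither the desert nor the far flank was then covered in either list. NCAM1, CADM1 and the cluster were not covered then either, so the 9.32 and 4.28 say nothing about these landmarks. Dense bins made up between 34.3% (limit of 70%) and 52.9% (limit of 50%) of the region under the alternatives, against 5.33% and 16.0% of all bins.

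The number of domains was 193 in list 1 and 248 in list 2 when joined under 3 kb, 7 and 23 under 25 kb, and 72 in list 1 when limited. The longest domain was 541 kb and 216 kb under 3 kb, 6462 kb in list 1 under 25 kb, and 464 kb in list 1 when limited. With list 1 limited, 87.4% of its peaks and 59.1% of those of list 2 overlapped, and 21.7% and 19.0% with a reciprocal overlap of 50%. All 77 alternative values for single segments moved. With borders 20 kb inward only the middle part of the cluster was left, covered 64.2% in list 1, against 36.4% with the borders as given. That part lay above the far flank and the rest of chromosome 11. Alternatives applied to list 1 alone left list 2 as it was. The cause of these changes was not tested.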
